A study of Mus musculus with 5 samples.

Results

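Among the DNaseI hypersensitive sites (DHSs) mapped along the path from mesoderm to macrophages, 1316 merged regions held a site of hemangioblasts (HB) and a site of hemogenic endothelium (HE) and none of the other 3 populations. They were 1.91% of 68846 regions (95% Wilson interval 1.81 to 2.02, which like all intervals below covers counting error only). They were chosen by the measured lists themselves: each of 135173 sites was replaced by 500 bp centred on it, windows that shared at least 25% of their length, whatever their stage, were chained into a region, and a region was kept if it had windows of HB and HE but not of mesoderm (MES), hematopoietic progenitors (HP) or macrophages (MAC). Their presence in HB and HE and their absence elsewhere is therefore a description and not a result. These regions are called HB/HE regions here.

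The populations came from 1 line of mouse embryonic stem (ES) cells, strain 129, in which GFP reports the mesodermal gene Brachyury (Bry), grown on mouse embryonic fibroblasts and then differentiated in vitro without further treatment named in the labels. They were sorted as MES (Bry+, Flk1-), HB (Bry+, Flk1+), HE (Tie2+, cKit+, CD41-), HP (CD41+) and MAC (CD11b+). The cell type label of HE also names Bry+, which the growth protocol and the study's methods do not give for it. Each stage had 1 list of sites (n = 1), so no difference between stages could be set against a spread between replicates and no test between stages was made. The label of MAC names replicates together, and 1 list was analysed for it. Site lists hold positions only and no read counts. The read totals that the study gives for its libraries were not used here. An unlisted site is not evidence of closed chromatin, and the HP list was the shortest with 17734 sites, against 21949 in MES, 24729 in HB, 33305 in HE and 37456 in MAC.

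Sites within 1 kb of a transcription start site (TSS) of genes that define the sorts, and of other marker genes of the stages, followed the labels in part. T, which encodes Brachyury, had such a site in MES and HB. Tek (Tie2) and Cdh5 (VE-cadherin) had one in HE only, and Itgam (CD11b), Csf1r and Adgre1 in MAC only. Itga2b (CD41) had one in HP and also in HE, which was sorted as CD41-. Kit (cKit), which defines HE, had one in MES, HB, HE and HP, and the mesoderm genes Mixl1 and Pdgfra had one in MES, HB and HE, Pdgfra also in MAC. Kdr (Flk1) and Runx1 had a site in all 5 lists. The blood factor genes Tal1 and Spi1 had one in HE, HP and MAC, Tal1 also in HB.

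Blood cells of the embryo arise from mesoderm through a bipotential precursor of endothelium and blood, the hemangioblast, and then through specialised endothelial cells, the hemogenic endothelium, that round up and become blood. DHSs are stretches where nucleosomes are displaced, mostly by bound transcription factors, and those far from promoters are often enhancers. GATA, ETS, SOX, TAL1 and RUNX factors are known regulators of these steps, and TEAD proteins, the DNA-binding partners of YAP in the Hippo pathway, are active in adherent and endothelial cells.

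To show the letters that the results below turn on, the central 300 bases of 7 HB/HE regions are printed from the GRCm38 (mm10) reference of RefSeq, plus strand, 5′ to 3′. They lie nearest to genes of different pathways. The first 6 were picked because they hold several kinds of letters and are not typical, since 27.0% of the regions over 2 kb from a TSS hold none of TEAD, GATA and SOX letters, and Vegfa was added as a region whose centre holds none of the marked letters. Capitals mark matches on either strand to the letters of TEAD (CATTCC), of the GATA factors (which are AGATAA), of the E-box (CATCTG, or in its related forms CAGCTG, or else with its centre changed CAGGTG), of the ETS factors (CAGGAA) and of the SOX factors (ACAANGG), where N is any base.
Nr2f2, chr7:70214243-70214542: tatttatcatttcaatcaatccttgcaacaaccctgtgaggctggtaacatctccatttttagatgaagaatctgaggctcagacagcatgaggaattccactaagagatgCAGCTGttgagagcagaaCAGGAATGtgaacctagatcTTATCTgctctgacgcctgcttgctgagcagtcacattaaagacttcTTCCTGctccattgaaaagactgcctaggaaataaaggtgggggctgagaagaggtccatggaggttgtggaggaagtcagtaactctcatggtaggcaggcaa
Eng, chr2:32655759-32656058: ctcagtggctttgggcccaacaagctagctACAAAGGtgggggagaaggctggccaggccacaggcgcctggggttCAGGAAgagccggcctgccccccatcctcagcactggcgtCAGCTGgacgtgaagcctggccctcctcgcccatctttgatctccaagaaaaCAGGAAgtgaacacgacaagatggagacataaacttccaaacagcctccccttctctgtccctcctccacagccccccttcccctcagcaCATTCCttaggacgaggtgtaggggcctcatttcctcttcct
Hand2, chr8:57328449-57328748: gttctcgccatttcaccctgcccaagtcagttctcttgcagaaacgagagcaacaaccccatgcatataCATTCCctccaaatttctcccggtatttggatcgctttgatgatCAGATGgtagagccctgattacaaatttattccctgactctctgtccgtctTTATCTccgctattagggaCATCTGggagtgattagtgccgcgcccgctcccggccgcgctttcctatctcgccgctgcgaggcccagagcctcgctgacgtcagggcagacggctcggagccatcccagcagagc
Col4a1, chr8:11393149-11393448: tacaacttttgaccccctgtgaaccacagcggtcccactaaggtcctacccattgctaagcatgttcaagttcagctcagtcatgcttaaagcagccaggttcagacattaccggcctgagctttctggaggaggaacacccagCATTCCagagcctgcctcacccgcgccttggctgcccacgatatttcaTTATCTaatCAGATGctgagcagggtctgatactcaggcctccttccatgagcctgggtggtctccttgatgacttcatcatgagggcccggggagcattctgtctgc
Runx1, chr16:92685608-92685907: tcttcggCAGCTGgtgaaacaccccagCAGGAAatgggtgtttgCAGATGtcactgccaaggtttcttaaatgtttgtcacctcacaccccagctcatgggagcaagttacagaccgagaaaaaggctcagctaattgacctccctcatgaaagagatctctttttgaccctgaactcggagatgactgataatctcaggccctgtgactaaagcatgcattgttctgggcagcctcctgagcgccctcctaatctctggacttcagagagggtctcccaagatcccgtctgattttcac
Tead1, chr7:112685293-112685592: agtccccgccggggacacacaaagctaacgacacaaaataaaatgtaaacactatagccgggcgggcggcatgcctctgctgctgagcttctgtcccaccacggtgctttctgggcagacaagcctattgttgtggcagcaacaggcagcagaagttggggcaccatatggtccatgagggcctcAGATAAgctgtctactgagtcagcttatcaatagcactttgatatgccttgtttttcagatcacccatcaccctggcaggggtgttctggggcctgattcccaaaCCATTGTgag
Vegfa, chr17:46027576-46027875: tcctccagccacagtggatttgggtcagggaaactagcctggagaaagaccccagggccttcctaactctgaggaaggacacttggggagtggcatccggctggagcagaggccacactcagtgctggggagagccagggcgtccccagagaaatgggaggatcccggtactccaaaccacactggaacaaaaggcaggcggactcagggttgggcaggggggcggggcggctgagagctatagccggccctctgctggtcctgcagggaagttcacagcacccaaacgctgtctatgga
The Nr2f2 stretch holds ETS and TEAD letters that overlap in 1 run, an E-box and GATA letters within its middle. The Hand2 stretch holds TEAD, E-box, GATA and again E-box letters, and the Col4a1 stretch has GATA letters directly followed by an E-box after 3 bases. The Eng stretch has SOX, ETS, E-box and TEAD letters and the Tead1 stretch GATA and SOX letters. The Vegfa stretch has no capitals. These are matches of letters and not bound sites.

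Next, the sites behind the HB/HE regions were described. Every region held exactly 1 HB and 1 HE window. The HB site had a median width of 700 bp (quartiles 500 and 900, range 100 to 2300) and the HE site one of 1100 bp (quartiles 800 and 1300, range 300 to 2600). The HE site was the wider in 1049 regions (79.7%), the HB site in 174, and 93 were equal. HE sites were wider in the whole list too, with a median of 1200 bp against 900 bp in HB.

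Measured against their own lists, both sites were on the narrow side. The HB site was below the median width of the HB list in 945 regions (71.8%) and the HE site below that of the HE list in 770 (58.5%). Only 214 regions (16.3%) had both sites at or above the median. In comparison, HB sites had a median of 600 bp in regions found in HB only, 900 bp in those of MES, HB and HE only, and 1200 bp in regions of all 5 stages. HE sites had 900 bp in HE-only regions and 1600 bp in those of all 5 stages. HB/HE regions thus sat between single-stage regions and regions of all 5 stages in width, and nearer the former.

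**Figure D1:**
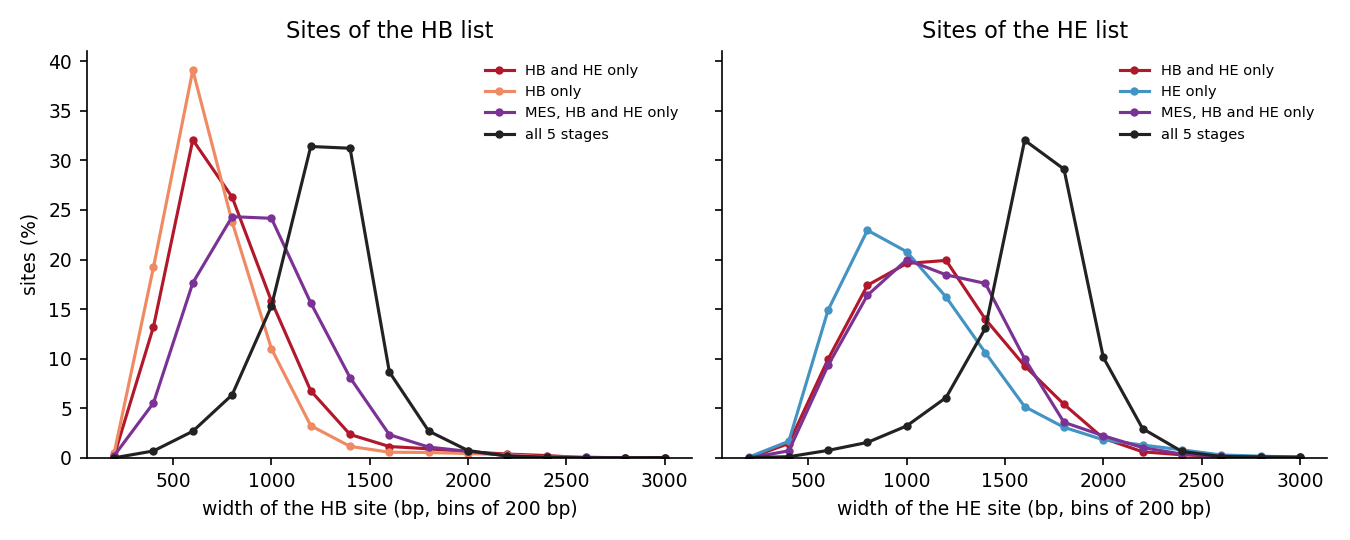
Width in bp of the HB sites (left) and HE sites (right), in bins of 200 bp, as a percentage of the sites behind 4 kinds of region, with 1 list per stage. The HB/HE curve (red) peaks near that of the single-stage regions in HB, with a median of 700 bp, and in HE it lies close to that of MES, HB and HE only, at a median of 1100 bp for both.

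The sites of a pair lay close together. Their middles were a median of 100 bp apart (quartiles 49 and 179, maximum 374), and the deposited HB interval lay wholly inside the HE interval in 823 regions (62.5%). The deposited intervals of a pair overlapped in all 1316 regions, by a median of 600 bp.

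The edge of the rule was narrow. In 32 HB/HE regions the windows shared between 25 and 30% of their length, just inside the limit, and 20 neighbouring pairs of an HB-only and an HE-only region shared between 20 and 25%, just outside it. On the side of the other stages, 72 HB/HE regions (5.47%) were touched by a deposited interval of another list although their windows were not merged with it: 41 by an MES, 26 by an HP and 25 by a MAC interval. The merged windows of the other 1244 were free of any such interval. Over their full deposited length, the HB or HE intervals of 107 regions (8.13%) overlapped an interval of another list. The nearest MES site had its middle a median of 17.7 kb away, the nearest HP site 28.0 kb and the nearest MAC site 15.9 kb.

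HB and HE together shared 15743 regions, and most of these were open elsewhere too. All 5 stages accounted for 9067 (57.6%), MES, HB and HE for 1842 (11.7%), MES to HP for 1601 (10.2%) and HB/HE regions for 1316 (8.36%, interval 7.94 to 8.80). HB/HE regions were 5.32% of the regions open in HB and 3.95% of those open in HE. Shared regions that went on into HP but were not listed in MES numbered 537 without MAC and 361 with it.

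To determine where the HB/HE regions lie, the distance from each centre to the closest TSS of a protein-coding gene was taken. Promoter regions, within 2 kb, made up 21.0% (277 regions, interval 18.9 to 23.3), proximal regions up to 20 kb 29.3% and distal regions 49.7%. The promoter share was above that of HB only (11.6%, interval 10.7 to 12.7) and HE only (16.2%, interval 15.6 to 16.9). It was below those of MES, HB and HE only (40.0%, interval 37.7 to 42.2) and of all 5 stages (82.4%), and slightly below the 24.0% of all merged regions (interval 23.6 to 24.3). The share was 46.0% with only the sites no narrower than their list's median and 39.2% with every list cut to its 17734 widest sites. These settings keep few of these regions, and the cause of the shifts was not tested. The median distance was 19.6 kb, and 85.9% of the regions lay within 100 kb. By gene structure, 45.4% had their centre in an intron, 33.1% between genes, 15.8% in a non-coding part of an exon and 5.70% in a coding exon, against 45.8, 34.5, 15.4 and 4.32% of all merged regions.

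The CpG-rich share ran in the same order among the patterns, though not against all merged regions. CpG-rich means here that the 500 bp at the centre reach a GC share of 0.5 and a ratio of 0.6 for CpG observed over expected. Of the HB/HE regions 18.8% met this (interval 16.8 to 21.0), against 7.40% of HB only, 8.47% of HE only and 32.9% of MES, HB and HE only, and near the 18.2% of all merged regions. With the same width limits it was 39.0% and 35.4%. Beyond 2 kb of a TSS it was 7.60% (interval 6.14 to 9.38), against 2.59% and 2.09% in the single-stage regions and 3.21% over all regions. HB/HE regions beyond 2 kb had a median GC content of 51.2%, which was 48.6% over all such regions.

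To describe their sequence, fixed motif letters were searched on either strand, within the 500 bp at the centre, in the 1039 HB/HE regions over 2 kb from a TSS and in 52345 such regions of all patterns. GATA letters were present in 40.7% of the HB/HE regions (423, interval 37.8 to 43.7) and in 27.3% of all regions. The share was close to that of HB only (41.8%, interval 40.1 to 43.4), above that of HE only (34.5%, interval 33.6 to 35.4) and above that of MES, HB and HE only (20.3%, interval 18.1 to 22.8). The same letters read backwards were found in 13.1% of the HB/HE regions and 19.0% of all regions. The higher GATA share therefore did not come with a higher share of the same bases in another order.

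TEAD letters stood in 39.2% of the HB/HE regions (407, interval 36.2 to 42.2) and in 29.3% of all regions. HB only had 36.4% (interval 34.8 to 38.0), whose interval overlapped that of the HB/HE regions, and HE only had 34.2% (interval 33.3 to 35.2). MES, HB and HE only had 33.3% and regions of all 5 stages 24.7%. Read backwards, the letters were in 13.8% of the HB/HE regions and 15.6% of all regions.

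In the ETS letters CAGGAA the HB/HE regions were nearer to HE only than to HB only. These letters occurred in 66.7% of them (interval 63.8 to 69.5), against 72.1% in HE only, 55.4% in HB only and 59.7% over all regions. Read backwards, they ran in the same order over a narrower range, at 29.3% in the HB/HE regions, 30.8% in HE only, 28.0% in HB only and 27.7% over all regions. The composite AACAGGAA, which contains CAGGAA and is known from endothelial enhancers bound by forkhead and ETS factors, occurred in 10.4% (interval 8.68 to 12.4), against 11.9% in HE only, 5.61% in HB only, 4.25% in MES, HB and HE only and 9.35% over all regions, which lies within the interval. The other ETS letters searched, CCGGAA, were in 11.3% (interval 9.48 to 13.3), above 8.98% in HE only and 7.50% in HB only and near the 12.5% of MES, HB and HE only. SOX letters were in 28.8% (interval 26.1 to 31.6), between 25.3% in HB only and 33.7% in HE only, with 26.7% over all regions. The SOX letters read backwards ran in the same order, at 32.7, 28.5 and 37.7%, so the order of the SOX shares is not particular to these letters.

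The remaining letters ran in different orders. TCF and LEF letters (ATCAAAG), the end point of Wnt signalling, were in 11.2%, against 14.6% in HB only, 7.64% in HE only and 7.78% of all regions. T-box letters (GGTGTGA) were in 9.05%, against 16.4% in HB only and 7.03% in HE only, and near the 8.68% of all regions. RUNX letters (TGTGGT) were in 29.8% (interval 27.1 to 32.7) and in 37.3% of all regions. HB only had 32.8%, HE only 34.1% and MES, HB and HE only 27.0%. Read backwards, RUNX letters were in 25.3% of the HB/HE regions and 29.2% of all regions. AP1 letters (TGANTCA) were in 16.1%, close to HB only (15.4%), where HE only had 24.7% and all regions 27.2%. The E-box CATCTG, a site of TAL1 with its partners, was in 37.0% of the HB/HE regions and 37.3% of all regions, so its share was near the background. The letters GAGGAAGT of PU.1, the master factor of macrophages, were in 5.39% (interval 4.17 to 6.93), against 9.47% of all regions, of which MAC supplied the longest list. HB only had 4.04%, HE only 6.62% and MES, HB and HE only 3.89%, so a low PU.1 share was not particular to the HB/HE regions. Read backwards, the PU.1 letters were also less frequent in the HB/HE regions, at 2.31% against 3.75%. CTCF letters were in 4.62%, against 3.61% in HB only, 1.74% in HE only, 3.89% of all regions and 9.67% in MES, HB and HE only.

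**Figure D2:**
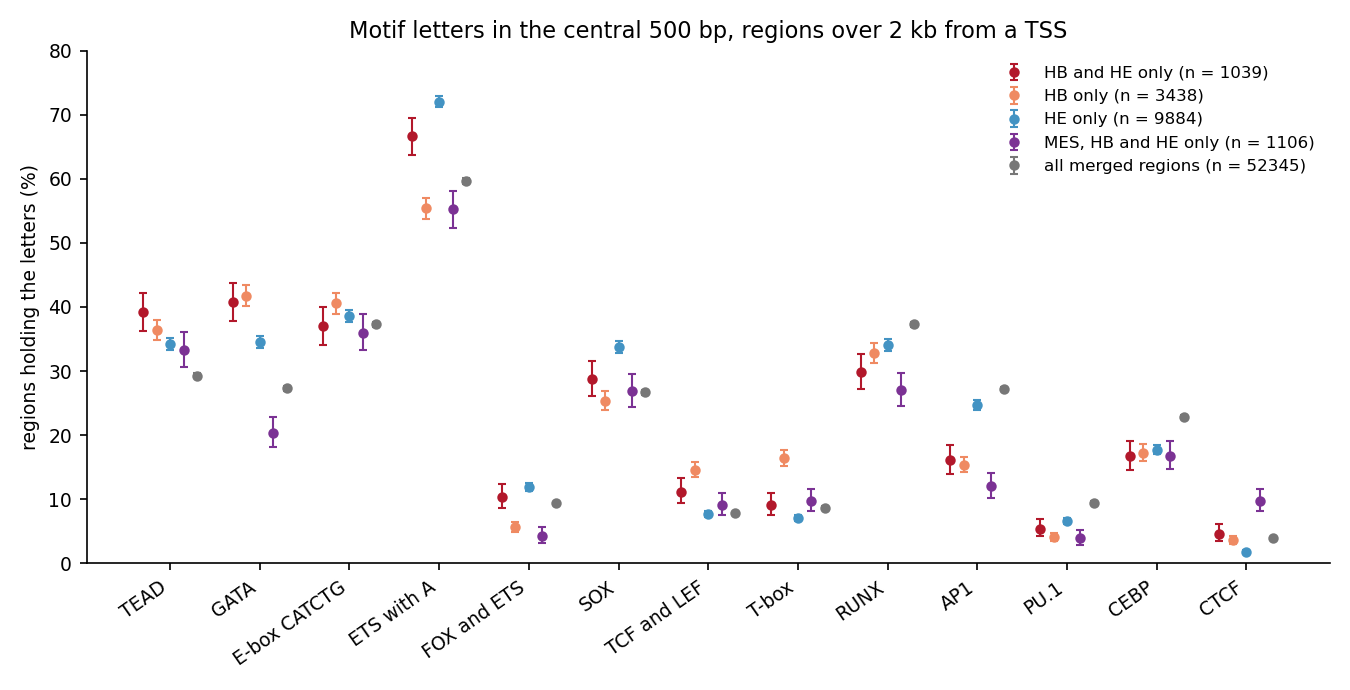
Percentage of regions over 2 kb from a TSS that hold the letters of 13 motifs in their central 500 bp, for 4 patterns and all merged regions, with 95% Wilson bars for counting error. HB/HE regions (red) lie with HB only in GATA and AP1 letters, at 40.7% and 16.1%, and nearer to HE only in ETS letters with A, at 66.7%.

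TEAD and GATA letters stood in the same region about as often as their single shares give. Both were present in 162 HB/HE regions (15.6%, interval 13.5 to 17.9), against 16.3% of HB only, 11.6% of HE only, 6.33% of MES, HB and HE only and 8.27% of all regions. The product of the single shares in the HB/HE regions is 15.9%. GATA together with the ETS letters CAGGAA was found in 28.1% (interval 25.5 to 30.9), against 23.4% of HB only, 25.1% of HE only and 16.5% of all regions. TEAD with the same ETS letters was also found in 28.1% (292 regions), against 21.9% of HB only and 25.9% of HE only. The products of the single shares are 27.2% for GATA and 26.1% for TEAD with these ETS letters, both within the intervals of the measured shares. All 3 of TEAD, GATA and SOX letters occurred in 51 HB/HE regions (4.91%) and in 2.33% of all regions, and none of them in 27.0% and 38.3%. The composite of CTG and GATAA spaced by 7 to 9 bases, known from sites of TAL1 with GATA factors, occurred in 9.43% (interval 7.80 to 11.4), near the 9.08% of HB only and 10.2% of HE only, against 5.06% of MES, HB and HE only and 7.20% of all regions.

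Regions with several copies of GATA or TEAD letters were also more frequent than over all regions. At least 2 matches to GATA letters were found in 11.9% of HB/HE regions, against 5.41% of all regions, and at least 2 to TEAD letters in 109 (10.5%), against 5.58%. For AP1 letters it was the other way, with at least 2 matches in 1.54% against 4.78%. The 806 regions with the wider site in HE and the 233 with a wider HB site or equal sites had similar shares of GATA letters, at 41.1% and 39.5%, and of TEAD letters, at 39.0% and 39.9%. SOX letters were in 30.3% (interval 27.2 to 33.5) of the former and 23.6% (interval 18.6 to 29.5) of the latter, with intervals that overlap.

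GATA and TEAD letters were concentrated toward the centre of the HB/HE regions, and likewise in HB only. GATA matches fell from 1.64 per kb within 50 bp of the centre to 0.712 per kb at 150 to 200 bp. At 200 to 250 bp they were at 0.799 per kb. From the first to the last of these bins, GATA matches fell from 1.62 to 0.701 per kb in HB only and from 0.961 to 0.683 in HE only. Those of all regions ranged from 0.596 to 0.732 per kb. TEAD matches fell from 1.30 per kb within 50 bp of the centre to 0.799 per kb at 200 to 250 bp. ETS matches (CAGGAA) fell from 2.66 to 1.76 per kb between the same bins. AP1 matches were few in the HB/HE regions, with 0.443 per kb within 50 bp of the centre and 0.318 to 0.346 per kb farther out, and over all regions they fell from 1.03 to 0.383 per kb. The centre is the middle of the merged windows and not a measured summit.

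**Figure D3:**
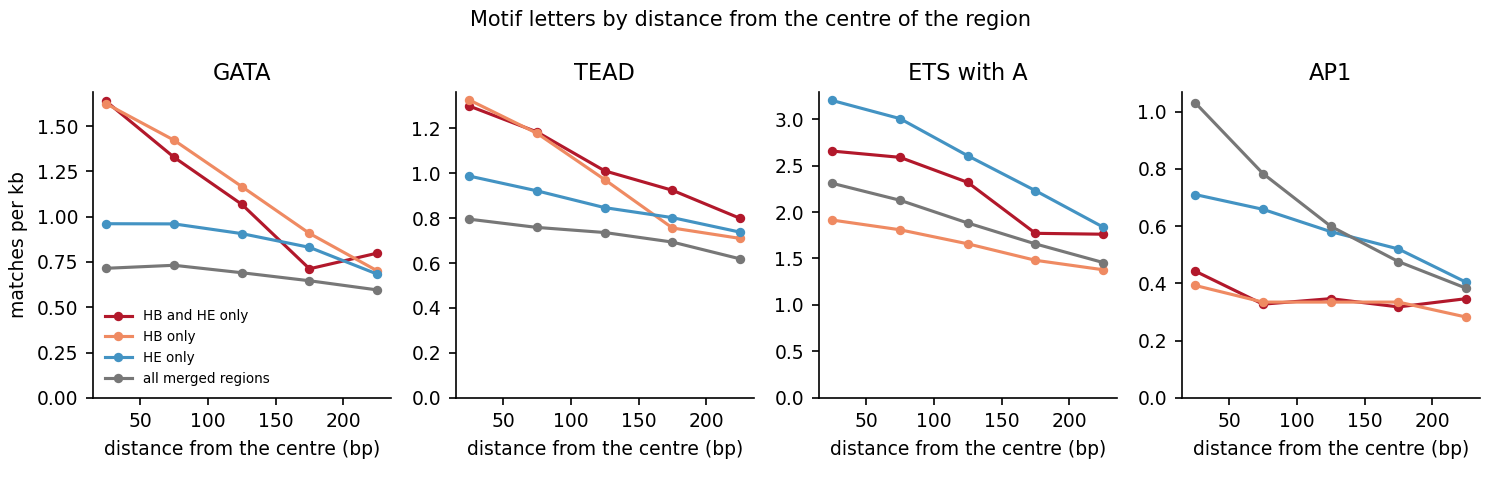
Matches per kb of GATA, TEAD, ETS (CAGGAA) and AP1 letters against the distance from the centre of the region in bp, in bins of 50 bp, for regions over 2 kb from a TSS. GATA matches of HB/HE regions (red) fall from 1.64 per kb at the centre, and those of HB only from 1.62. AP1 matches of HB/HE regions lie between 0.318 and 0.443 per kb.

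To relate the HB/HE regions to genes, each was assigned to the protein-coding gene with the nearest TSS, which need not be the gene it acts on. The 1316 regions named 1167 of 21000 genes (5.56% of all genes), of which 1042 had 1 region, 105 had 2, 16 had 3 and 4 had 4. A gene with a long stretch of genome nearest to it collects more regions: of the fifth of genes with the longest stretches, at a median of 287 kb, 12.7% had an HB/HE region, against 1.26% of the fifth with the shortest, at a median of 12.4 kb. Developmental genes mostly have long stretches, so the stretch is given beside the lists of genes. With genes split into 5 equal classes by stretch length, genes of the same stretch classes as those of a list had an HB/HE region in 6.00 to 11.1% of cases, depending on the list.

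Genes of endothelial transcription factors had HB/HE regions most often among 14 lists, 10 of 18 genes against 5.56% of all genes and 9.11% of genes of the same stretch classes, at a median stretch of 195 kb (49.0 kb for all genes). Of these 18, 17 were also nearest to an HE-only region and 6 to an HB-only region, where all genes had 30.3% and 13.4%. The 10 genes were Fli1, Erg, Ets1, Sox7, Klf4, Foxc1, Foxo1, Nr2f2, Prox1 and Mef2c. Next came mesoderm and cardiac factors with 8 of 21, Wnt signalling with 7 of 19, BMP and TGF-beta signalling with 8 of 22 and guidance genes with 6 of 18. At the lower end were macrophage genes with 1 of 17 (median stretch 65.9 kb) and pluripotency genes with 1 of 13 (median stretch 174 kb), near the shares of 6.61% and 7.99% in the same stretch classes. In each of the 14 lists, HE-only regions named more genes than HB/HE regions did. HB-only regions named at least as many in every list but the endothelial factors.

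**Figure D4:**
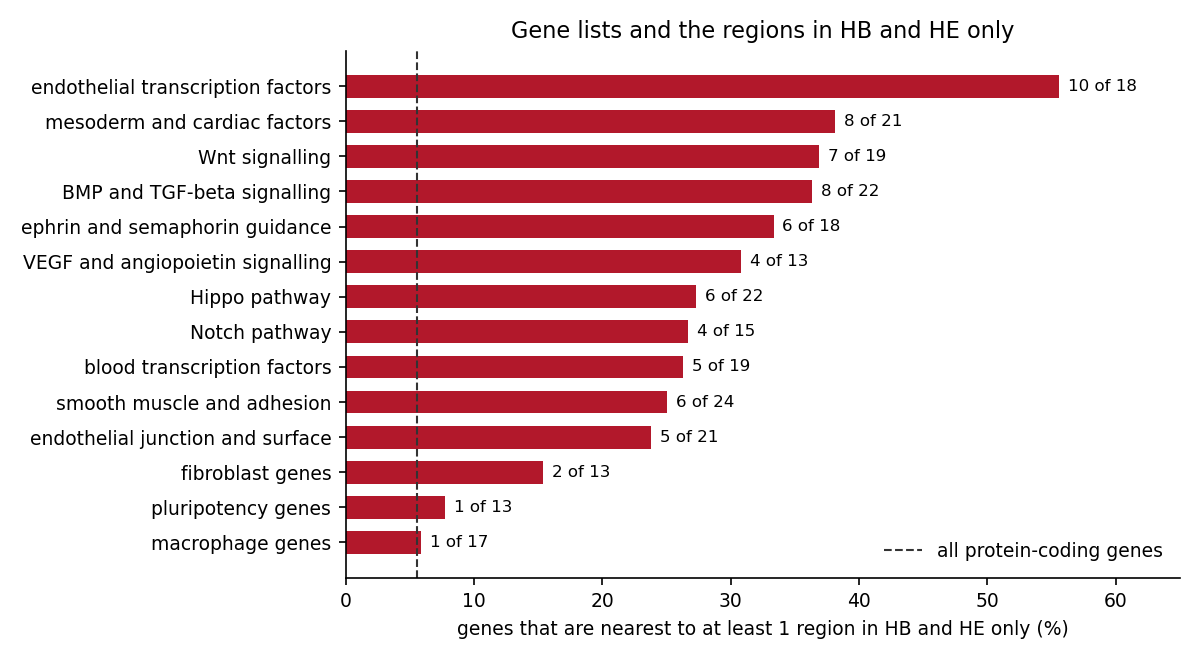
Percentage of the genes of each list that are nearest to at least 1 HB/HE region, with the counts beside the bars and the share of all protein-coding genes (5.56%) as a dashed line. Endothelial transcription factors reach 55.6% and macrophage genes 5.88%, and the lists differ in the median length of genome nearest to a gene.

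At ETS factor genes, which drive endothelial programmes, the HB/HE regions differed in place. The region of Ets1 (chr9:32635751-32636450) lay 0.140 kb upstream of a TSS, with an HB site of 600 bp and an HE site of 800 bp. The region of Erg (chr16:95585497-95586068) lay 0.810 kb downstream in a coding exon and was CpG-rich, with sites of 600 bp in HB and 1000 bp in HE. At Fli1, the region lay 40.8 kb upstream (chr9:32582001-32582600), with 500 bp in HB and 1300 bp in HE, and held GATA, ETS, PU.1 and E-box letters. Of these genes, Erg had a promoter site in HB and HE only, which is the region itself, Fli1 in HE and MAC, and Ets1 in all 5 lists.

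Other endothelial factors followed. Sox7, a SOX factor of early hemangioblast and endothelial cells, had its HB/HE region 0.309 kb upstream of the TSS (chr14:63943008-63943785), CpG-rich with a GC content of 66.4%, with 500 bp in HB and 2000 bp in HE. Nr2f2, which encodes the venous factor COUP-TFII, had 2 regions, 146 kb downstream and 258 kb upstream, and both held GATA letters, the E-box CAGCTG and the composite AACAGGAA. Foxo1, a forkhead factor of vessels, had 2, 31.2 and 145 kb downstream. The region of Foxc1, 4.14 kb downstream, had the wider site in HB, at 700 bp against 300 bp in HE. That of Klf4, a factor of vascular quiescence, lay 54.4 kb downstream, with 400 bp in HB and 600 bp in HE.

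Blood transcription factor genes had HB/HE regions in 5 of 19 cases (median stretch 87.0 kb). The share was 5.56% over all genes and 7.26% in the same stretch classes. HB-only regions named 7 of the 19 genes and HE-only regions 16. Runx1, which is required for blood to emerge from endothelium, had 2 HB/HE regions. The first lay 11.6 kb downstream of a TSS in an intron (chr16:92685369-92686146, of which the central 300 bases are printed above), with 1100 bp in HB and 1000 bp in HE, and its central 500 bp held GATA, E-box, ETS, SOX and T-box letters. The second lay 327 kb upstream (chr16:93152969-93153596), with 800 bp in both lists. Runx1 had 51 regions of all patterns in a stretch of 617 kb, so its HB/HE regions were a small part of them.

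The partners of Runx1 and related factors had 1 or 2 regions each. Cbfb, the binding partner of RUNX1, had 1 at 6.08 kb upstream with 400 bp in HB and 1100 bp in HE. Gfi1, a repressor that silences endothelial genes in emerging blood, had 1 at 0.445 kb upstream, CpG-rich, with 900 bp in HB and 2000 bp in HE, and this was its promoter site. Zfpm1, which encodes the GATA cofactor FOG1, had 1 at 40.3 kb downstream with 1900 bp in both lists, and an HP interval also touched it. Meis1, a homeobox factor, had 2 regions, 45.0 kb downstream and 8.44 kb upstream, with an HE site of 1100 and 1300 bp and an HB site of 400 and 500 bp.

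In VEGF signalling, 4 of 13 genes had an HB/HE region (median stretch 192 kb), among ligand and receptors. The share was 5.56% over all genes and 8.89% in the same stretch classes. HB-only regions named 5 of the 13 genes and HE-only regions 11. Vegfa, the ligand, had 1 HB/HE region at 2.56 kb upstream (chr17:46027424-46028028) with 700 bp in HB and 900 bp in HE, and it held CTCF and RUNX letters. Flt1, which encodes VEGF receptor 1, had 2. One covered a TSS, at 0.0230 kb with a GC content of 72.6%, 1000 bp in HB and 1900 bp in HE. The coreceptor genes Nrp1 and Nrp2 had 1 each, 162 kb and 3.45 kb downstream.

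Endothelial junction and surface genes had HB/HE regions in 5 of 21 cases (median stretch 56.5 kb). The share was 5.56% over all genes and 6.00% in the same stretch classes. HB-only regions named 5 of the 21 genes and HE-only regions 15. Eng, which encodes the TGF-beta coreceptor endoglin, had 1 HB/HE region in an intron 9.31 kb downstream with 400 bp in HB and 1500 bp in HE. Acvrl1, which encodes the receptor ALK1, had 1 at 12.1 kb downstream with 1300 bp in both lists. Egfl7, Icam2 and Cdh5 had 1 each, at 14.7, 36.1 and 351 kb upstream. That of Icam2 lay in a coding exon and was touched by a MAC interval. The promoters of Acvrl1 and Cdh5 were listed in HE only, so at these genes the HB/HE region was listed in HB, which had no promoter site.

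Notch pathway genes with an HB/HE region were 4 of 15 (median stretch 70.6 kb), and all 4 are known targets of the pathway. The share was 5.56% over all genes and 7.95% in the same stretch classes. HB-only regions named 4 of the 15 genes, HE-only regions 9 and those of MES, HB and HE only 5. Nrarp had 1 HB/HE region at 3.57 kb upstream with 1300 bp in both lists. Hey1 and Hey2, which encode transcriptional repressors that act in arterial endothelium, had 1 each, at 100 kb and 226 kb upstream. The region of Hes1 lay 119 kb upstream, was CpG-rich, and was touched by a MAC interval.

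In the Hippo pathway, whose DNA-binding end points are the TEAD proteins, 6 of 22 genes had 10 HB/HE regions (median stretch 97.8 kb). The share was 5.56% over all genes and 7.10% in the same stretch classes. HB-only regions named 8 of the 22 genes and HE-only regions 12. Tead1 had 3 HB/HE regions. They lay 18.9 kb upstream with 600 bp in HB and 1300 bp in HE, 6.09 kb downstream with 700 and 1500 bp, and 101 kb downstream with 1800 and 1300 bp. The first of them held TEAD letters, the other two did not. Lats2, a kinase that restrains YAP, had 2 within 7.52 kb upstream of the TSS, both with GATA letters. Ccn1, a classical target of YAP, had 2, at 35.1 kb downstream and 53.5 kb upstream, and the latter held TEAD letters. Amotl1 and Amotl2, angiomotin-like binders of YAP, and Vgll4, which competes for TEAD, had 1 each, and those of Amotl2 and Vgll4 held TEAD letters.

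BMP and TGF-beta signalling had 8 of 22 genes and 12 HB/HE regions (median stretch 172 kb). The share was 5.56% over all genes and 9.70% in the same stretch classes. HB-only regions named 9 of the 22 genes and HE-only regions 18. The inhibitory genes Smad7 and Smad6 had 3 and 2 HB/HE regions. Those of Smad7 lay 71.6 and 36.1 kb upstream and 38.3 kb downstream, all with GATA letters, with HB sites of 400, 600 and 400 bp and HE sites of 1400, 1200 and 1000 bp. Smad5, a transducer of BMP signals, had 1 at 7.07 kb downstream, with 400 bp in HB and 800 bp in HE, and with TEAD, GATA and SOX letters. Of the ligands, Tgfb2 had 2 at 150 and 95.8 kb downstream, and Bmp2 and Bmp7 had 1 each, over 100 kb away. Id3, a target gene, and Nog, which encodes the antagonist noggin, had 1 each.

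Wnt signalling had 7 of 19 genes and 12 HB/HE regions (median stretch 224 kb), and 14 of the 19 genes were also nearest to an HB-only region and 17 to an HE-only region. Regions of MES, HB and HE only named 10 of them. Over all genes these shares were 5.56, 13.4, 30.3 and 7.82%, and for HB/HE regions 10.2% in the same stretch classes. Wnt3, a ligand of primitive streak formation, had 1 HB/HE region at 10.3 kb upstream and 1 at 0.741 kb upstream with 2000 bp in HB and 1700 bp in HE. Fzd7 (receptor), Ctnnb1 (beta-catenin), Lef1 and Tcf7l1 (DNA-binding factors) had 1 each, at 48.3 to 164 kb. Sp5, a direct Wnt target, had 2, both over 180 kb upstream in introns, and an MES interval touched the farther one. Tle3, a co-repressor of the Groucho family, had 4.

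Among mesoderm and cardiac factors, Tbx3 had 3 HB/HE regions, Isl1 and Gata6 2 each, and Hand2, Nkx2-5, Eomes, Tbx20 and Foxf1 1 each (median stretch 112 kb). These were 8 of 21 genes, against 5.56% of all genes and 8.45% in the same stretch classes. HB-only regions named 13 of the 21 genes and HE-only regions 14. The HB/HE region of Hand2 (chr8:57328224-57328974) lay 7.62 kb downstream, with 1200 bp in HB and 1700 bp in HE, and was CpG-rich. The Nkx2-5 region lay 9.01 kb upstream, with 1500 and 1700 bp. Both genes had a promoter site in HE only. The region of Eomes, a mesendoderm factor, was wider in HB than in HE, at 900 against 500 bp.

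Structural and guidance genes were also represented. Of smooth muscle and adhesion genes 6 of 24 had HB/HE regions (median stretch 71.1 kb): Col4a1 and Col4a2, which encode basement membrane collagen, Actn1, Actn4, Myh9 and Tpm1. The share was 5.56% over all genes and 6.58% in the same stretch classes. HB-only regions named 6 of the 24 genes and HE-only regions 18. The HB/HE region of Actn1 at 13.7 kb upstream was touched by MES and HP intervals. The 2 HB/HE regions of Col4a1 lay 67.1 and 80.5 kb upstream, with HB sites of 400 and 1100 bp and HE sites of 1200 and 1600 bp. Both held TEAD and GATA letters, and an MES interval touched the second. Of guidance genes (median stretch 410 kb, with 11.1% of genes in the same stretch classes), Efnb1 and the arterial ligand gene Efnb2 had 2 each, and Ephb2, Unc5b, Sema6a and Slit3 1 each. HB-only regions named 12 of the 18 guidance genes and HE-only regions 15.

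Lists of other cell types held few. The macrophage gene with a region was Irf8, 94.7 kb downstream, with 1400 bp in HB and 800 bp in HE and with PU.1 letters. The pluripotency gene was Nr5a2, with a region 0.611 kb downstream of a TSS. Of 13 fibroblast genes (median stretch 159 kb), a check on the feeder cells, Col1a1 and Thy1 had 1 region each, at 19.6 and 49.9 kb upstream (15.4% of the list, against 5.56% of all genes and 9.88% in the same stretch classes). HB was sorted on the GFP reporter of the ES line and on Flk1, and HE on Tie2 and cKit, and whether feeder chromatin contributed was not tested.

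The genes with most HB/HE regions were Bcor, Meis2, Rgs3 and Tle3 with 4 each. Meis2, a homeobox factor, stood out among them by its share: 4 of its 18 regions of all patterns were HB/HE regions, against 4 of 47 at Tle3, 4 of 42 at Bcor, which encodes a Polycomb-linked co-repressor, and 4 of 35 at Rgs3, a regulator of G-protein signalling. At Meis2 no site of any pattern was listed in HP. The region 0.935 kb downstream of a TSS had an HB site of 2100 bp and an HE site of 2000 bp, and the others lay 2.49, 43.5 and 205 kb downstream, with 700 and 1500 bp, 900 and 1300 bp, and 1500 and 1900 bp in HB and HE. The promoter of Meis2 was listed in MES, HB and HE.

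The regions of Tle3 lay 82.3, 56.6 and 3.09 kb upstream and 8.24 kb downstream, with HB sites of 700, 1100, 1100 and 500 bp and HE sites of 900, 1500, 600 and 1100 bp. The third was wider in HB and the others wider in HE. Among the genes with 3 regions were Cdh13, which encodes T-cadherin of vessels, Ece1, which encodes the endothelin-converting enzyme, the transcription factor genes Mycn and Sall3, and Dusp4, a phosphatase gene of MAP kinase signalling. At Ntf3, 3 of only 6 regions were HB/HE regions.

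**Figure D5:**
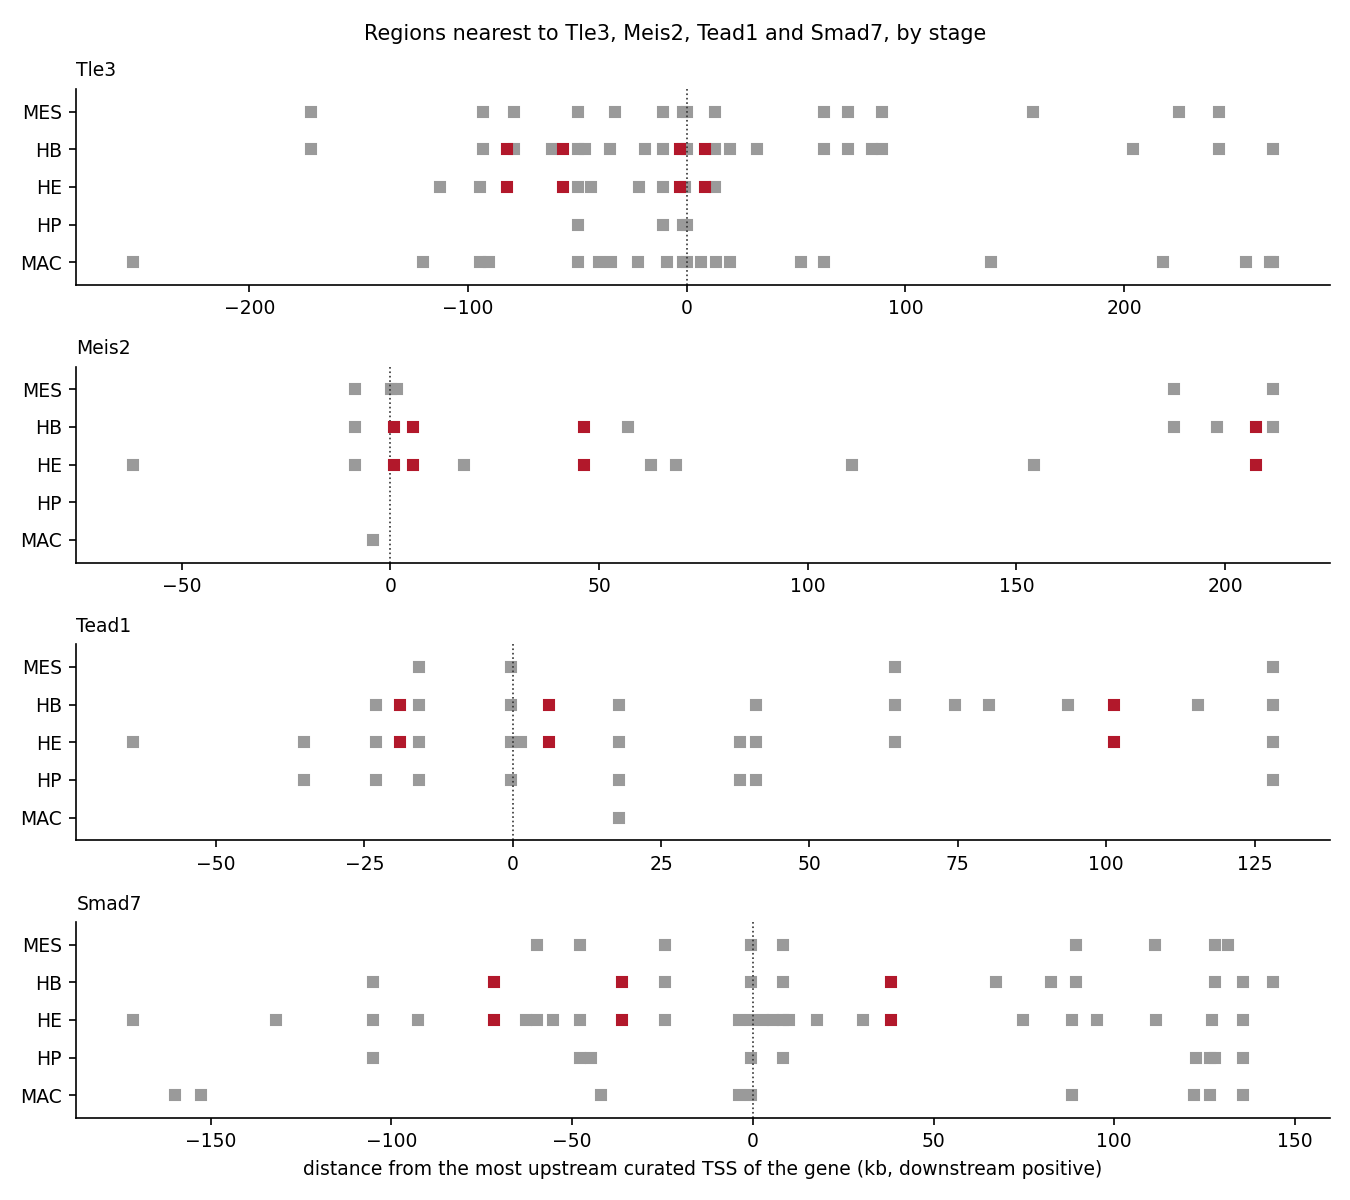
Distance in kb from the most upstream curated TSS of Tle3, Meis2, Tead1 and Smad7 to each merged region nearest to that gene, in 1 row per stage, with HB/HE regions in red and other regions in grey. Tle3 and Meis2 have 4 red regions each, Tead1 and Smad7 have 3, and Meis2 has no region in HP.

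HB/HE regions seldom lay next to each other. Neighbouring ones on a chromosome were a median of 786 kb apart, and 24 of 1296 neighbouring pairs lay within 10 kb. No stretch of 200 kb held more than 4. The first such stretch in genome order held the 4 regions of Rgs3, spread over 171 kb on chromosome 4 among 28 regions of all patterns. Along the chromosomes, the share of regions that were HB/HE ranged from 1.51% on chromosome 17 to 2.86% on chromosome X, leaving out the 13 regions on Y, of which none was one.

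At promoters, 277 HB/HE regions lay within 2 kb of a TSS of 276 genes. Of these genes, 186 (67.4%) had a promoter site (within 1 kb) in HB and HE and in no other list, 28 (10.1%) in MES, HB and HE only, and 23 (8.33%) in all 5 lists, where the HB/HE region stood beside a shared promoter site. The first of these shares mostly restates the rule, since a region this close to a TSS is often the promoter site itself. CpG-rich sequence was found in 61.0% of the promoter regions (interval 55.2 to 66.6), near the 61.4% of MES, HB and HE only and the 65.9% of all merged regions this close to a TSS, against 44.0% of HB only, 41.4% of HE only and 88.6% of all 5 stages.

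At Gfi1, Erg, Sox7, Flt1 and Nr5a2, the HB/HE region within 1 kb of the TSS was itself the promoter site, so their promoters were listed in HB and HE only by the rule. Beyond promoters, the 779 genes nearest to an HB/HE region at 2 to 100 kb mostly had a promoter site at other stages too: 72.9% of them in the MES list, 78.7% in the HE list, 60.2% in the HP list and 56.6% in the MAC list. For all genes these shares were 56.0, 60.3, 49.0 and 48.6%. Genes nearest to HE-only regions had 68.7, 76.0, 58.1 and 56.0%, so high promoter shares were not particular to the HB/HE regions.

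The widest HB/HE regions were mostly those in which another list came close. Of the 12 with the greatest width in both lists, 11 were touched by a deposited MES, HP or MAC interval, against 72 of all 1316. The widest lay at Tsc22d1, 0.687 kb downstream of a TSS, with 2300 bp in HB and 2400 bp in HE, and MES and HP intervals touched it. Dok4, which encodes an adaptor of receptor tyrosine kinases, followed with 2200 and 2500 bp, also touched by both. The 1 of the 12 left untouched was the promoter region of Meis2, whose merged windows were free but whose deposited HB or HE interval overlapped an MES interval. Of the 12 widest at promoters, among them those of Tsc22d1, Dok4, Mical1, Soat1, S1pr2, H1f10, Mapk3, Arl5c and Sh3rf3, the merged windows of Meis2 and Wnt3 were free of other intervals, but by their full deposited intervals all 12 overlapped an MES interval. Without the 72 touched regions, GATA letters were in 41.5% and TEAD letters in 39.6% of the rest, and 19.8% were promoters. Without the 107 whose full intervals overlapped another list, these shares were 41.5%, 39.9% and 18.9%.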

How the data were processed

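DNaseI-seq was done on 5 populations, with 1 site list each. According to the study's methods, the authors trimmed reads with CutAdapt, aligned them to mm10 (GRCm38), took out duplicates (Picard) and listed sites with DFilter, whose bins were 100 bp. The submitters' processing notes name Bowtie and HOMER. Versions are not given in the sources used here. Each deposited line gives the start and end of a site in bp, with no score or read count, so precision can only be given as counting error. HB/HE regions were found by the rule in the text. TSS and gene parts came from RefSeq GRCm38.p6, with 25999 curated protein-coding TSS positions, and 4 mitochondrial regions were left out of annotation. A member's gene was that of the nearest TSS, and promoter sites were deposited intervals within 1 kb of a curated TSS. In all, 23 sets of motif letters were looked for on either strand of the 500 bp at the centre. Python 3.11.15, NumPy 2.4.6 and SciPy 1.17.1 were used, and merging and searching were tested on simulated data. Genes were named by a rule: list genes with a region (at most 8 a list with values), the 15 genes with most regions, the 12 widest regions and promoter regions, and the densest 200 kb. Of the genes so named, 1 is not reported here. Alternatives were other merging, stricter widths, other TSS and a shorter motif window. The members, lists and motifs were chosen with earlier results of these data known. No test between stages was possible with n = 1.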

Additional observations from a re-analysis of the deposited data

How the results depend on the processing

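Merging windows at 1 or 250 bp, or merging deposited intervals, gave 1273 to 1379 HB/HE regions, which held the sites of 87.3 to 95.3% of the 1316, and changed no share by more than its interval. Other settings moved values. With every list cut to its widest 17734 sites, as many as HP had, there were 452 regions, of which 326 were made of sites of the 1316, and 437 nearest genes, with promoters at 39.2%, CpG-rich regions at 35.4% and GATA letters at 37.1%. With only the sites that were no narrower than their list's median, there were 895 regions, of which 214 were made of the sites of the 1316, with promoters at 46.0%, CpG-rich regions at 39.0%, GATA letters at 34.8% and TEAD letters at 35.4%. These settings keep fewer sites in every list, and the cause of the shifts in share was not tested. Under both, GATA letters stayed above all regions, at 1.33 and 1.28 times their share. TSS of all annotated transcripts gave 30.9% promoters, and a stricter CpG definition (GC of 0.55, ratio of 0.65) 15.3%. In the central 200 bp, a shorter search, GATA letters were in 24.8% and TEAD letters in 20.4% of the regions, 1.95 and 1.50 times the share of all regions. The values without regions touched by other lists were, apart from the count and the promoter share, added after seeing the data, as were all those without regions whose full intervals overlap another list. No paired analysis was possible because each stage had 1 list. The lists hold no read counts, so faint sites missing from a list cannot be told apart from closed chromatin, and the short HP list limits what absence there can show.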
